A study of Rattus norvegicus with 8 samples.

Results

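The livers of 21-day-old rats were examined for the transcripts of 8 genes that bring glucose into the hepatocyte, regulate its first phosphorylation, and build or break down glycogen: Slc2a2, Gckr, Gys2, Pygl, Gbe1, Ugp2, Ppp1r3b and Ppp1r3c. They are a chosen set of the pathway's genes, taken with earlier results of these data known, and were found on the array by the symbol of its non-control probes. The shares given below for the 8 are therefore a description. Each had 1 probe among the 30367 on the array, and all 8 were among the 14931 genes bright enough to be tested. The control group was 4 Wistar pups of dams on standard food. The deficient group was 4 Wistar pups of dams on food without vitamin B12 and folates, the vitamins that carry methyl groups into the methionine cycle. Dams had been on their food since before mating and stayed on it until weaning. Total liver RNA was labelled with Cy3 or Cy5, and each of 4 Agilent 2-colour arrays held 1 control and 1 deficient animal, with the dyes balanced between the groups. The males were 1 control and 2 deficient animals.

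Glucose crosses the hepatocyte membrane through GLUT2, the product of Slc2a2, and is then phosphorylated, a step on which the regulatory protein Gckr acts from the nucleus. From glucose 1-phosphate, Ugp2 makes UDP-glucose, Gys2 adds its glucose to the growing chain, and Gbe1 introduces the branches. Pygl removes glucose units again between meals. Ppp1r3b and Ppp1r3c carry protein phosphatase 1 to the glycogen particle, where dephosphorylation turns the synthase on and the phosphorylase off.

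The oligonucleotides that read these transcripts are 60 bases long, and their last 30 bases are printed here for the 6 genes that changed and for Ppp1r3c, because each value below comes from 1 such probe. Capitals mark the hexamer AATAAA, searched on the printed strand, which in many transcripts is the signal for polyadenylation. It occurs in the last 30 bases of 2047 of all 30367 probes (6.74%) and in 4 of the 8 probes of these genes.
Slc2a2: aatctAATAAActggaccaatcacagggaa
Gckr: ctggtgtcttctgaactcagaAATAAAact
Gys2: atggtacttttgttgtctaattggaaattt
Pygl: ctaaaAATAAAatgtcaacttcgagttgtc
Gbe1: gacaatcacctttgagagagcaggacttct
Ppp1r3b: ctgtgtctctgatcaaggtggaggtgagaa
Ppp1r3c: ctcactttaagAATAAAtgtgcttggtaga
In the rn4 build of the files the whole probe of Slc2a2 lies at chr2:116065774-116065833 on the plus strand, and that of Gys2 at chr4:179984073-179984132 on the minus strand. The probe of Pygl is at chr6:92298341-92298400 (minus), that of Gbe1 at chr11:8949657-8949716 (plus), and that of Ugp2 at chr14:102072808-102072867 (minus). Those of Ppp1r3b and Ppp1r3c are at chr16:60555640-60555699 and chr1:240991885-240991944, both on the minus strand. The files list the Gckr probe as unmapped, and exon or UTR positions on rn4 were not analysed here.

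In the deficient livers Gys2, the liver glycogen synthase, rose 2.08-fold, while 5 of the 8 genes fell: Slc2a2, Gckr, Pygl and Gbe1 by 1.36-fold to 1.77-fold, and Ppp1r3b, whose dim probe gives its fall no firm size. Ugp2 and Ppp1r3c did not pass the test. A gene is said to rise or fall where limma's test across all genes, on log2 normalised intensity, with dye as a further term and arrays treated as blocks, gave a Benjamini-Hochberg adjusted p below 0.05. By that rule 11.1% of all genes tested changed, 4.53% higher and 6.58% lower, against 75% of these 8, of which 12.5% were higher and 62.5% lower. Ppp1r3b is counted here, although its probe was well above background in all 4 controls and only 1 deficient liver. It was therefore bright enough to be tested only through the controls. With probes required well above background in all 8 samples, Ppp1r3b was not tested, and 1 of the genes rose and 4 fell. Without deficient replicate 3, 1 of the 8 rose and 6 fell. Without control replicate 3, 1 rose and 1 fell, and without array 3, which paired control replicate 2 with deficient replicate 4, none passed and 6 had an unadjusted p below 0.05 in limma. The median change of the 8 genes was -0.57 on the log2 scale, beside 0.0095 over all genes tested. The groups did not overlap for 4 of the 8, Slc2a2, Gckr, Pygl and Gbe1, and for 11.5% of all genes. Changes are given as deficient minus control on the log2 scale, ± the fitted SE, and group values are means ± SD of log2 intensity, n = 4 animals in each group. In whole liver, fewer cells of a type and less RNA per cell cannot be told apart, and since the labels name no litters, a p-value speaks of the spread among these 8 animals, some of which may be littermates.

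**Figure D1:**
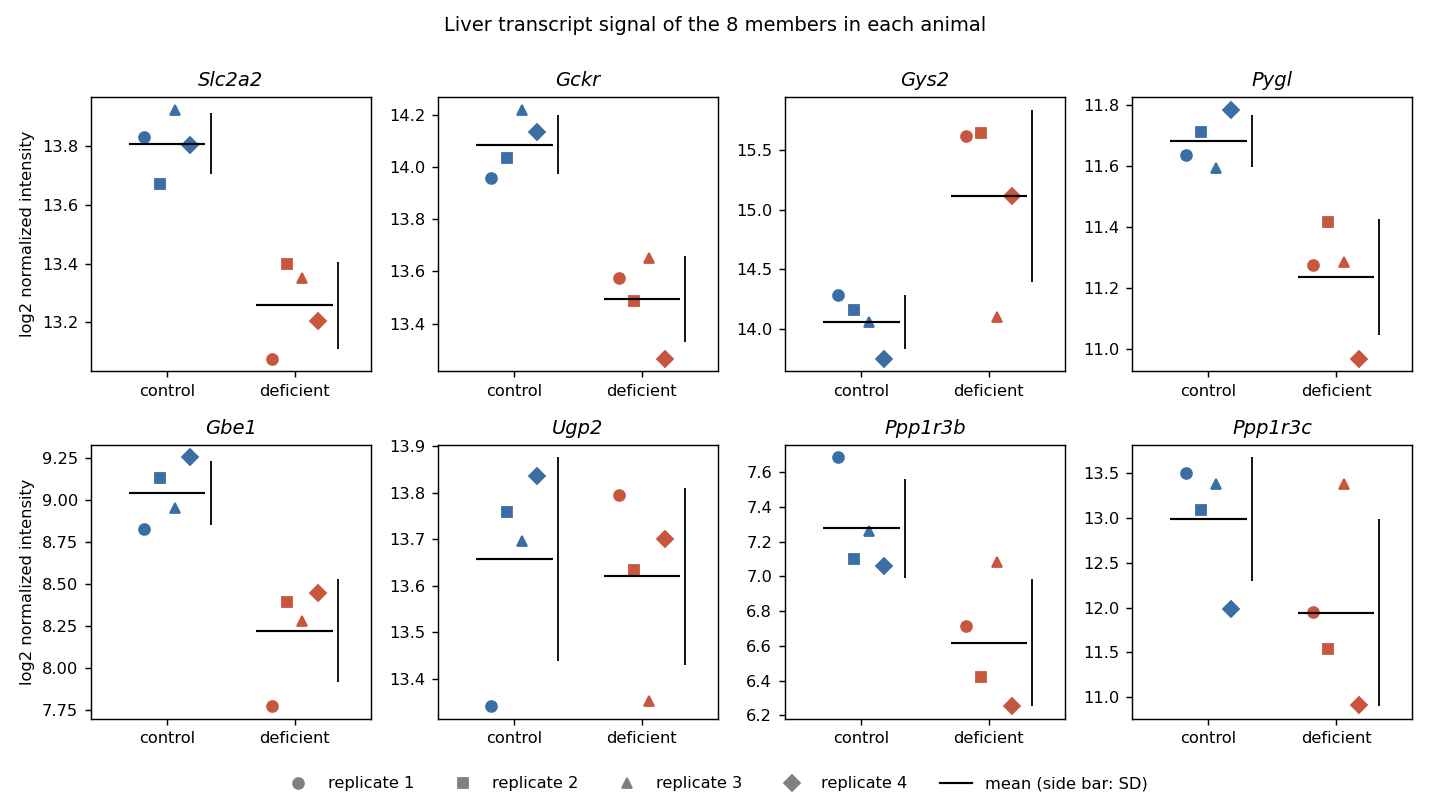
Log2 normalised intensity (y axis, a separate scale for each gene) of the 8 genes in the 4 control and 4 deficient livers, 1 point per animal, with the group mean as a line and the SD as a side bar. Slc2a2, Gckr, Pygl and Gbe1 separate the groups without overlap, and deficient replicate 3 lies within the control range for Gys2 and Ppp1r3c.

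The arrays were of similar quality. Median signals per sample lay between 152.5 and 299 over backgrounds of 33 to 58, with 59.1% to 65.5% of spots well above background and 0 saturated. All arrays were on 1 slide scanned on 1 day, and their number limits the precision. Deficient replicate 3 stood apart from the other 7 animals in the tested skeletal muscle transcripts other than Tnnc2. Mylpf, a fast muscle myosin light chain, was at 11.65 in it and between 6.86 and 8.21 in the others. Tnni2, a troponin, was at 11.50 against 8.01 to 8.71. Of the 12 muscle markers listed, 5 were bright enough to be tested. The log2 of their summed intensities lay between 10 and 10.54 in controls and between 11.01 and 13.41 in deficient livers. The muscle marker Tnnc2 rose by 2.85 (limma, adjusted p = 0.000472), with 7.46 to 8.31 in controls and 10.24 to 11.43 in deficient livers. The other 4 did not pass the test. In deficient replicates 1, 2 and 4, Mylpf (6.86, 7.12 and 7.78) and Tnni2 (8.58, 8.04 and 8.40) were no higher than the highest control. In those livers the higher sum came mainly from Tnnc2. Of the 6 hepatocyte markers, Ttr fell by 0.89 (limma, adjusted p = 0.00885) and Serpina1 by 0.59 (0.0277). The others did not pass the test, with changes of -1.01 for Alb (0.0517), -0.48 for Cps1 (0.164), 0.92 for Tat (0.179) and 0.35 for Apoa1 (0.169). The log2 of the summed intensities of these 6 was 19.53 to 19.94 in controls and 18.95 to 19.56 in deficient livers. The part of these markers in the results below was not tested. For the 8 genes and the called genes of the lists below, values without deficient replicate 3 are given where leaving it out changed the call. They are also given for some further genes.

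Slc2a2 encodes the facilitative transporter through which glucose enters and leaves the hepatocyte. Its log2 intensity was 13.83, 13.67, 13.92 and 13.80 in control replicates 1 to 4 and 13.08, 13.40, 13.35 and 13.20 in deficient replicates 1 to 4. Every deficient liver was below the lowest control. The means were 13.81 ± 0.10 and 13.26 ± 0.15, a fall of 1.46-fold (log2 change -0.55 ± 0.088, 95% interval -0.75 to -0.35, limma adjusted p = 0.00781). On the 4 arrays, numbered by the order of their first sample, the deficient animal stood at -0.48, -0.85, -0.47 and -0.41 relative to its control. The test was no longer passed without control replicate 3 (adjusted p = 0.0614) or without array 3 (0.0952), although the direction stayed. The same held with within-array log ratios (0.0605) and in females only (0.133).

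Gckr, whose protein restrains the phosphorylation of glucose in the hepatocyte, had 13.96, 14.04, 14.22 and 14.14 in the controls and 13.57, 13.49, 13.65 and 13.27 in the deficient livers. Here too the highest deficient value lay below the lowest control value. The means of 14.09 ± 0.12 and 13.49 ± 0.17 differed by -0.59 ± 0.093 (interval -0.81 to -0.38, adjusted p = 0.00719 by limma), a fall of 1.51-fold. The deficient animal was lower on all 4 arrays, at -0.31 on array 1 and at -0.65, -0.77 and -0.65 on the others. As for Slc2a2, leaving out control replicate 3 (adjusted p = 0.057) or array 3 (0.0714) ended the call. So did within-array log ratios (0.0537) and the fit in females only (0.15).

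Gys2, the synthase that elongates liver glycogen, was the gene of the 8 that rose. The controls had 14.28, 14.16, 14.05 and 13.75, and the deficient livers 15.62, 15.64, 14.10 and 15.11. In 3 deficient livers Gys2 was above every control, while deficient replicate 3 lay within the control range, so the groups overlapped. The means were 14.06 ± 0.23 and 15.12 ± 0.72, a difference of 1.06 ± 0.19 (interval 0.63 to 1.49, limma adjusted p = 0.0114). On array 1 the deficient animal was at -0.18 relative to its control, and on arrays 2, 3 and 4 at 1.57, 0.96 and 1.89. By size of change Gys2 was number 233 of the 14931 genes tested. Without deficient replicate 3 the change was 1.34 (adjusted p = 0.00042), and without array 3 it was 0.77 and did not pass the test (0.098). Nor did it pass without the array block (0.0565), with within-array log ratios (0.0557) or in females only, at 0.74 (0.212).

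Because Gys2 went the other way from the rest, the 250 bases before its transcription start are shown, as RefSeq's table for the GRCr8 build gives them (chr4:177137237-177137486, minus strand). Capitals mark a match to a direct repeat of the nuclear receptor type (AGGTCA, then any base, then AGGNCA) that nuclear receptors such as HNF4 and the PPARs are known to bind; it spans positions -80 to -68, where 0 is the first transcribed base.
Gys2 promoter: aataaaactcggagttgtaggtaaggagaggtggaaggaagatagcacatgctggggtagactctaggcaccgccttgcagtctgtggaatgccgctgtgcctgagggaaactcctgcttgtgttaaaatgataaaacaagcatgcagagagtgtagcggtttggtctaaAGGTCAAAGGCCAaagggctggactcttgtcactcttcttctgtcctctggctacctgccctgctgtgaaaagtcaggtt
Windows of 250 bases before to 50 after the start were searched on both strands for 7 of the 8 genes, and the motif was found in that of Gys2 alone and in 52 of all 33469 promoters (0.155%). The E-box CACGTG was found in that of Ppp1r3c at -54 to -49 (6.42% of all promoters). TATAAA was found in that of Gbe1 (14.2%), at positions 11 to 16, which lie after the transcription start. The forkhead motif GTAAACA and the cyclic AMP response element (TGACG directly followed by TCA) were in 0 of the 7, and in 3.78% and 1.83% of all promoters. The motifs do not overlap one another. They were picked after the sequences had been seen, and a match describes the letters only.

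Ugp2 supplies the UDP-glucose that the synthase uses. It had 13.34, 13.76, 13.70 and 13.84 in the controls and 13.79, 13.63, 13.35 and 13.70 in the deficient livers, with 1 low animal in each group, and both of these were on array 1. The means of 13.66 ± 0.22 and 13.62 ± 0.19 differed by -0.038 ± 0.10 (limma adjusted p = 0.845). The 95% interval of that difference runs from -0.28 to 0.20, and neither bound reaches the size of the change in any of the 6 genes that changed.

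Gbe1 is the branching enzyme. Its log2 intensity was 8.83, 9.13, 8.95 and 9.26 in the controls and 7.77, 8.39, 8.28 and 8.44 in the deficient livers, and the groups did not overlap. The means were 9.04 ± 0.19 and 8.22 ± 0.31, a change of -0.82 ± 0.11 (interval -1.08 to -0.57, adjusted p = 0.00457 in limma), or 1.77-fold lower. Relative to its control the deficient animal stood at -0.55, -1.18, -0.69 and -0.86 on arrays 1 to 4. Of the 12 fits that left out an animal or an array, only the one without array 3 ended the call (adjusted p = 0.0567). In females only the call was lost too (0.0738). The size varied with the background treatment. It was -1.06 with the software's processed signals (0.0192) and -0.66 with spots in very high local background kept (0.0235).

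Pygl, the liver phosphorylase that releases glucose 1-phosphate from glycogen, had 11.64, 11.71, 11.59 and 11.79 in the controls against 11.28, 11.42, 11.29 and 10.97 in the deficient livers. All deficient values lay below all control values. The difference between means of 11.68 ± 0.085 and 11.24 ± 0.19 was -0.45 ± 0.090 (interval -0.65 to -0.24, limma adjusted p = 0.0179), a fall of 1.36-fold. The call was lost without control replicate 2 (0.0803), 3 (0.0919) or 4 (0.061), without deficient replicate 4 (0.0774), and without array 2 (0.0581) or 3 (0.166), all adjusted p-values. It was also lost with the software's processed signals (0.0538), without the array block (0.0916), and with within-array log ratios (0.0845). With sex as a term (0.0506) and in females only (0.212) it was lost as well. The direction was lower on each array, from -0.32 to -0.74.

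Ppp1r3b, the liver's main glycogen-targeting subunit of protein phosphatase 1, had 7.69, 7.10, 7.26 and 7.06 in the controls and 6.72, 6.42, 7.08 and 6.25 in the deficient livers. Deficient replicate 3 lay just above the lowest control, and the other 3 deficient livers lay below every control. The means were 7.28 ± 0.29 and 6.62 ± 0.37, a change of -0.66 ± 0.14 (interval -0.98 to -0.34, limma adjusted p = 0.0223). The probe was well above background in all 4 controls but in only 1 deficient liver. The change was -1.56 with the scanner software's processed signals (adjusted p = 0.0297), -0.44 with spots in very high local background kept (0.0783), and -0.23 in females only (0.423). Without deficient replicate 3 it was -0.81 (0.0097). The call was lost without control replicate 1 (0.11), 2 (0.0681) or 3 (0.119), without deficient replicate 4 (0.102), and without array 2 (0.0574) or 3 (0.142). It was also lost without the array block (0.163) and with sex as a term (0.0672).

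Ppp1r3c encodes another targeting subunit, found in liver and in muscle, which also binds phosphorylase and the synthase. Its values were 13.51, 13.10, 13.38 and 11.99 in the controls and 11.95, 11.54, 13.38 and 10.91 in the deficient livers. Deficient replicate 3 equalled control replicate 3, control replicate 4 was as low as deficient replicate 1, and the groups overlapped. The means of 12.99 ± 0.69 and 11.95 ± 1.05 differed by -1.05 ± 0.40 (interval -1.96 to -0.14), which passed at an unadjusted p of 0.0288 but not after adjustment (limma, 0.13). The change on arrays 1 to 4 was -0.13, -1.43, -2.19 and -0.44. Without deficient replicate 3 it was -1.61 (adjusted p = 0.00748), and without array 1, which held that animal and control replicate 1, it was -1.56 (0.0188). Without deficient replicate 4 it was -0.61 (0.416), without array 3, which held that animal, -0.53 (0.606), and in females only -0.26 (0.801).

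**Figure D2:**
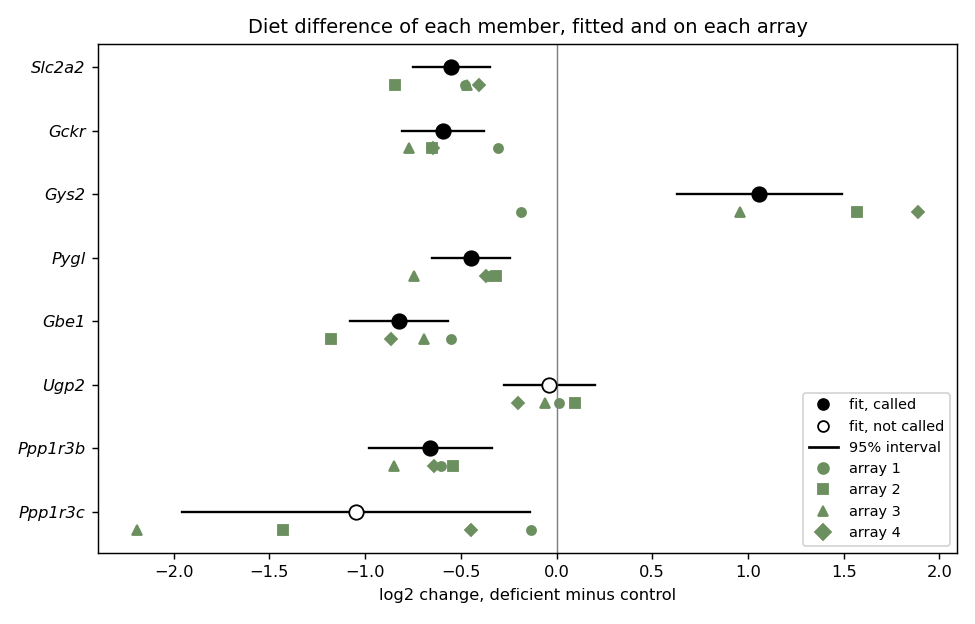
Log2 change of deficient minus control (x axis) for each of the 8 genes, with the fitted change and its 95% interval in black (filled where the adjusted p was below 0.05) and the difference within each of the 4 arrays in green. All 4 arrays fall below 0 for Slc2a2, Gckr, Pygl, Gbe1, Ppp1r3b and Ppp1r3c, and array 1 is at -0.18 for Gys2 while the other arrays lie between 0.96 and 1.89.

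The genes whose log2 values were most like those of each changed gene across the 8 animals were found by Pearson correlation with 10534 other named genes, as a description, since the 8 points hold both diets and any pair that differs by diet correlates. For Slc2a2 they were Alad (r = 0.992), Igf1 (0.991) and Pigk (0.980). For Gckr they were Utp6 (0.986), Hrg (0.976) and Cyp4f1 (0.970). For Gys2 they were Xpot (0.991), Rhoc (0.986) and Slc22a25 (0.976), all of which rose, by 0.45, 0.70 and 0.45. Pygl was most like Cog2 (0.979), Gas2 (0.954) and Slc10a1 (0.950). Gbe1 was most like Abca1 (0.988), Ncapd2 (0.987) and Rab38 (0.980), and Ppp1r3b like Cav2 (0.976), Ier2 (0.968) and Ube2d3 (0.968). The probe of Ppp1r3b was well above background in only 1 deficient liver, so its correlations rest partly on values near background. Among the companions of the fallen genes, Utp6, Cog2 and Ube2d3 did not pass the test of diet, and the others fell, from -0.33 for Ncapd2 to -1.51 for Hrg.

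The other genes of glucose and glycogen metabolism were taken from 8 lists of 77 genes, of which 66 were tested. Of these, 3 rose and 9 fell, together 18.2%, beside 11.1% of all genes tested (4.53% higher and 6.58% lower). The median change of the 66 was 0.0070. With probes required well above background in all 8 samples, 3 rose and 8 fell. Without the array block 1 rose and 2 fell, with within-array log ratios 1 and 2, and with sex as a term 2 and 6. In females only 0 rose and 0 fell, and with sample weights 9 rose and 13 fell. Without deficient replicate 3, 5 rose and 8 fell. Leaving out an animal or an array gave 0 (without array 3) to 9 (without deficient replicate 2) rises, and 2 (without control replicate 2 or 3, deficient replicate 4 or array 3) to 15 (without deficient replicate 2) falls. Around the entry of glucose, 2 of 7 fell: Slc2a5, the fructose transporter GLUT5 (-0.45 ± 0.081, limma adjusted p = 0.0119), and Slc2a9, a urate transporter (-0.49 ± 0.093, 0.0147). The Slc2a5 probe was well above background in only 2 deficient livers, and its change was -0.96 with the software's processed signals and -0.33 with spots in very high local background kept. Among 6 genes of glucose 6-phosphate release and isomerisation, Slc37a4, which carries glucose 6-phosphate into the endoplasmic reticulum for hydrolysis, fell by 2.61-fold (-1.38 ± 0.15, adjusted p = 0.00223). It had 14.93, 15.05, 15.16 and 15.08 in the controls and 13.40, 13.60, 14.26 and 13.42 in the deficient livers, with no overlap. The catalytic subunit G6pc1, named after its values were seen, varied more: its change was 0.37 ± 0.50 (adjusted p = 0.667), at -0.95 on array 1 and at 0.84, 1.07 and 0.53 on the others. Without deficient replicate 3 it was 1.05 (0.093).

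Of the 6 partners of glycogen synthesis that were tested, none passed limma's adjusted threshold and 1 had an unadjusted p below 0.05. This was Ppp1cb, a catalytic subunit of protein phosphatase 1 (0.24 ± 0.10, adjusted p = 0.18), whose other probes gave 0.068 and -0.40. Of 8 genes of glycogen breakdown, none passed either and 2 had an unadjusted p below 0.05. The smallest was that of Stbd1, which tethers glycogen to membranes (-0.29 ± 0.081, adjusted p = 0.057), with 11.64, 11.42, 11.47 and 11.34 in the controls and 11.09, 11.06, 11.35 and 11.23 in the deficient livers. Of 14 kinases and hormone receptors that act on glycogen, Prkag2, a regulatory subunit of AMP-activated kinase, fell by 0.47 (0.0152) and Adra1b, the adrenergic receptor alpha 1B, by 0.41 (0.0244). Without deficient replicate 3 Adra1b was at -0.36 and did not pass (0.0648). Of 10 transcription factors, Mlxipl, the carbohydrate-responsive factor ChREBP, fell by 0.50 (0.0198).

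The enzymes that feed galactose into UDP-glucose held all 3 of the rises. Galk1, which phosphorylates galactose, rose 1.74-fold (0.80 ± 0.14, adjusted p = 0.0106), from 14.72, 14.74, 14.43 and 14.53 in the controls to 15.88, 15.57, 14.71 and 15.45 in the deficient livers, where replicate 3 lay within the control range. Galt, which exchanges galactose 1-phosphate against UDP-glucose, rose by 0.67 ± 0.099 (0.00579) with no overlap: the controls had 12.32, 12.26, 12.28 and 12.16 and the deficient livers 13.27, 12.78, 12.72 and 12.94. Galm, the mutarotase that precedes them, rose by 0.37 ± 0.077 (0.0205). Ugdh, which oxidises UDP-glucose for glucuronidation, fell by 0.47 ± 0.13 (0.0472), and was at -0.63 (0.00909) without deficient replicate 3. It passed the test in only 7 of 25 alternative fits. The call was lost without the array block (0.153), with sex as a term (0.0837) and with the authors' table (0.0519), among others. In the 9 glycolysis genes tested, Pklr, the liver pyruvate kinase, fell 2.74-fold (-1.45 ± 0.13, adjusted p = 0.00106) and Pfkfb1, which sets fructose 2,6-bisphosphate, by 0.65 (0.0186). The other probe of Pfkfb1 gave -0.41, and without deficient replicate 3 its change was -0.81 (0.00446). Of these called genes, Slc37a4 and Pklr passed the test in all 12 fits that left out an animal or an array, and Galt in 11. The other 9 passed in 2 (Ugdh) to 8 (Slc2a5 and Galk1) of the 12, and leaving out array 3 was among those that ended the call for each of the 9.

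**Figure D3:**
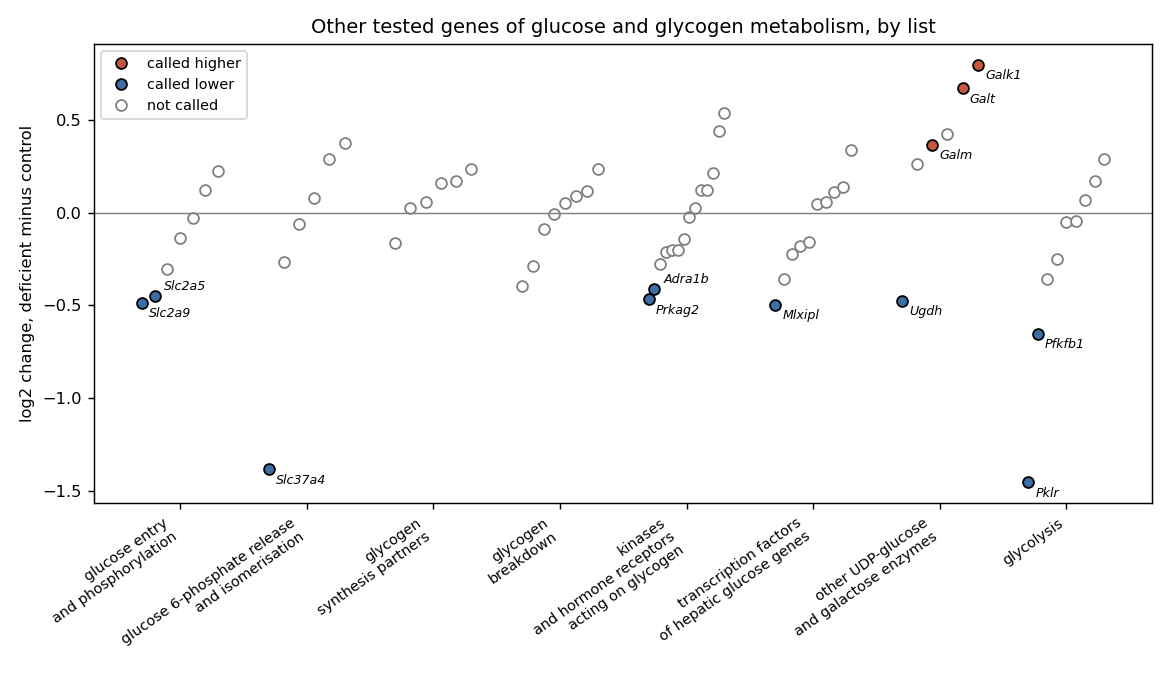
Log2 change of deficient minus control (y axis) of the 66 tested genes outside the 8, 1 point per gene, grouped by list along the x axis and filled where the adjusted p was below 0.05. The filled points above 0 are Galm, Galt and Galk1 in the list of UDP-glucose and galactose enzymes, and the lowest points are Pklr at -1.45 and Slc37a4 at -1.38.

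**Figure D4:**
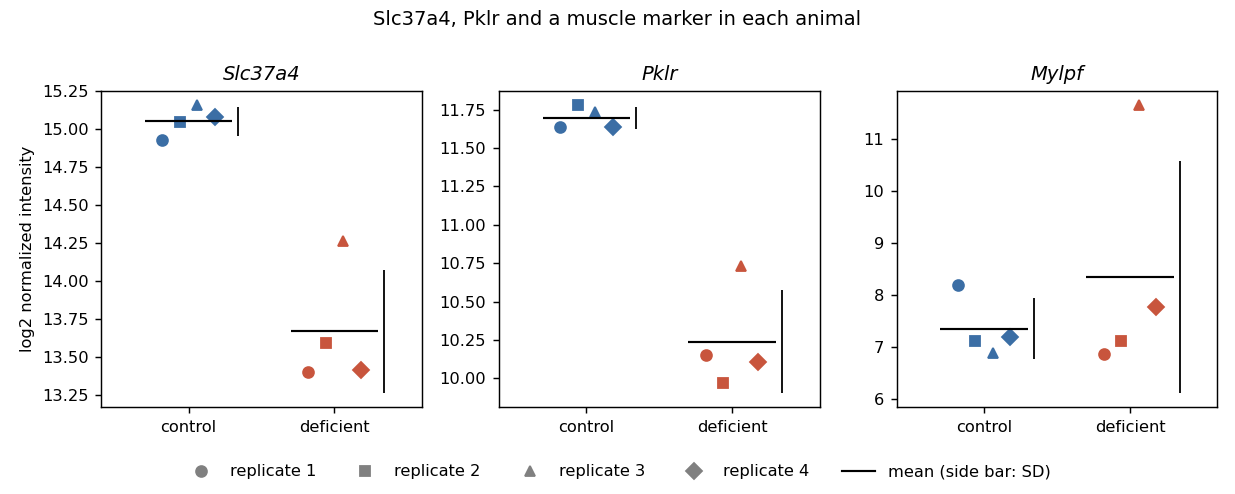
Log2 normalised intensity (y axis, a separate scale for each gene) of Slc37a4, Pklr and the muscle transcript Mylpf in each animal, with group means as lines and the SD as side bars. Deficient replicate 3 is the highest of its group in all 3 panels, at 14.26 for Slc37a4, 10.73 for Pklr and 11.65 for Mylpf.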

How the data were processed

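Spot intensities were deposited by the authors as 1 Agilent Feature Extraction 10.7.1.1 file per sample, the version being read from the file headers. The authors' table of normalised intensity, deposited with no statement of its method in the sources used here, served as an alternative.

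Mean spot signals were background-corrected by normexp (offset 50), after leaving out 72 spot values with a local background over 5 times the channel's median, then normalised by loess within arrays and Aquantile between them, all in limma 3.58.1 (R 4.3.3). A gene was tested on its brightest probe if 4 or more of the 8 samples had it well above background. Diet was fitted with dye as a term and the array as a block (correlation 0.422), with Benjamini-Hochberg adjustment over 14931 genes, and the method was tested on simulated data. Samples sharing identical array data were placed on 1 array. Replicate numbers follow accession order and pair nothing. Symbols of 3795 probes were updated through RefSeq.

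The members and lists were chosen with earlier results of these data known. Some genes of the lists are not reported here and were left out of the list counts. The text names every member, every called gene of a list, the smallest-p gene of a list without a call, and 3 genes most like each called member. Alternatives changed background, normalisation, probe filter, probe choice, block, sex and weights, and left out animals and arrays.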

Additional observations from a re-analysis of the deposited data

Results flagged for a closer look

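In 46 groups of 4 animals, covering these 8 genes, the called genes of the lists, Stbd1, Ppp1cb and G6pc1, 2 groups had an animal far from the others, where chance flags about 1 in 20. Dixon's ratio, the gap to the nearest animal over the group's range, exceeds its 95% critical value for 4 values in each. Slc2a9 was lowest in deficient replicate 2 at 7.16, with the next at 7.45 (ratio 0.908). Prkag2 was lowest in control replicate 1 at 7.87, with the next at 8.11 (0.899).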

How the results depend on the processing

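Under 25 alternatives, Slc2a2, Gckr, Gys2, Pygl, Gbe1 and Ppp1r3b kept their direction wherever they were tested, and passed the test in 21, 21, 21, 14 and 23 of 25 and 14 of 24. Of the 8 genes, 1 rose and 5 fell in the report's fit. Without the array block 0 rose and 3 fell, with within-array log ratios 0 and 2, with sex as a term 1 and 3, and in females only (3 control and 2 deficient animals) 0 and 0, with 5 at an unadjusted p below 0.05 by limma. Leaving out an animal or an array gave 0 to 1 rises and 0 to 6 falls. Genes called of all tested numbered 1658 in the report's fit. They were 954 with spots in very high local background kept, 399 without the block, 453 with ratios, 811 with sex, 50 in females only, 4071 with sample weights, and 212 to 3548 when an animal or an array was left out. Of the 1658, 676 were higher, and the share of higher calls was 50.4% without control replicate 3. Direction changed for uncalled genes: Ugp2 ranged from -0.13 to 0.0375 over the fits without an animal or array, Ppp1cb was -0.030 with the mean of its probes, and G6pc1 was -1.07 in females only and -0.26 to 1.05 without an animal or array. Each array pairs 1 animal of each group, which the report's fit took as a block and the ratios as a pair, while the replicate numbers pair nothing. The cause of these changes was not tested. Probes near background, such as that of Ppp1r3b, limit the size of a fall that can be measured.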

Other observations

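Other cell types that whole liver holds were read through lists of their markers. Of 4 neutrophil genes tested, 3 fell: S100a8 by 0.72 (limma, adjusted p = 0.00666), S100a9 by 0.97 (0.00455) and Camp by 0.63 (0.0345). The log2 of the summed intensities of the 4 was 10.65 to 11.24 in controls and 10.05 to 10.74 in deficient livers. Of 5 genes of stellate cells, which store retinoids, Lrat, the enzyme that esterifies retinol, fell by 0.67 (0.00525). Of the 7 Kupffer cell genes tested none passed limma's adjusted threshold and 0 had an unadjusted p below 0.05. None passed among 4 erythroid (2 unadjusted), 4 cholangiocyte (1), 4 endothelial (1), 3 pancreas (1), 1 adipose (1) and 1 kidney tubule gene (0).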
